A study of Mus musculus with 6 samples.

Results

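The epithelial sodium channel, ENaC, and the genes that control it were followed in collecting duct cells given a vasopressin analog. Members were chosen by name, as every probe set annotated to exactly 1 of 10 genes: the channel subunits Scnn1a, Scnn1b and Scnn1g, the proteases Prss8 and Tmprss4, and the regulators Sgk1, Nedd4l, Hsd11b2, Nr3c2 and Tsc22d3. The table held 15 such probe sets for 9 of these genes, among 28225 probe sets and 12364 named genes in all. Nr3c2, the mineralocorticoid receptor, was not analysed here. No probe set naming a member together with another gene was found (0).

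The cells were mpkCCD clone 11, a single clone of an immortalised mouse line from the kidney cortical collecting duct, grown as a polarized sheet on a porous support. Once the sheet's electrical resistance had reached 5 kohm cm2, 3 cultures received 0.1 nM dDAVP and 3 received vehicle alone, in both cases for 5 days. dDAVP (desmopressin) is a synthetic peptide related to vasopressin and selective for its V2 receptor. Each culture gave 1 Affymetrix Mouse Genome 430 2.0 array. The labels call the cultures biological replicates without saying whether they were separate passages, so the p-values below reflect variation among these 6 cultures. All values below are deposited log2 signals, and a change is the mean of the dDAVP arrays minus that of the vehicle arrays. Signals of different probe sets depend on their probes, so levels were not compared between genes.

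ENaC carries sodium from the urine into principal cells of the collecting duct and is built from an alpha, a beta and a gamma subunit. Aldosterone, acting through the mineralocorticoid receptor, induces the kinase SGK1, which phosphorylates the ubiquitin ligase NEDD4-2 (encoded by Nedd4l) and so keeps it from removing the channel from the apical membrane. Serine proteases open the channel further by cutting its alpha and gamma subunits. Vasopressin acts on the same cells through cAMP and is known to raise sodium transport by ENaC as well as water transport by aquaporin 2.

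The promoter sequences below show the DNA beside some of the members for which RefSeq start sites were given (GRCm38.p6, bases upstream of the start site, plus strand). Tsc22d3, with 3 start sites, and Nr3c2, with 1, are not shown. No start site was given for Tmprss4, Scnn1a, Prss8, Nedd4l or Hsd11b2 (0 each). Scnn1g and Scnn1b are shown because they lie next to each other on chromosome 7, with 1 non-coding gene and no protein-coding gene (0) between them, and had the most positive changes among the subunits. Sgk1 is shown for the upstream window of 1 of its 6 start sites, which holds a palindromic steroid receptor motif, in capitals. The Scnn1g run is 191 bases because 59 bases that lie inside the annotated gene were left out.
Scnn1g, chr7:121734229-121734419: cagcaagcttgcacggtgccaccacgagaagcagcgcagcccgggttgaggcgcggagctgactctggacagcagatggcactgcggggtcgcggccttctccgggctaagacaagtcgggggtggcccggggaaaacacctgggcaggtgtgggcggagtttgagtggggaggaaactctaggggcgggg
Scnn1b, chr7:121864788-121865037: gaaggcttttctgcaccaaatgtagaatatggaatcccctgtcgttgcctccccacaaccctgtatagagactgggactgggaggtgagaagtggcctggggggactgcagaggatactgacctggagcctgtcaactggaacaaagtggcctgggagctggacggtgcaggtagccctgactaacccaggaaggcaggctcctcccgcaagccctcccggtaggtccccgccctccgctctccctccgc
Sgk1, chr10:21993640-21993889: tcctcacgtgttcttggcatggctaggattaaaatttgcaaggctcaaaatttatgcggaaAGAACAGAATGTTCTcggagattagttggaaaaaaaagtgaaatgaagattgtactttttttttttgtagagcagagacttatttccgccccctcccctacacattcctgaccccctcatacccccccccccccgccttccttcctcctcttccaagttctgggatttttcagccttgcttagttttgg

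The palindrome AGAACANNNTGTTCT, the form bound by the glucocorticoid and mineralocorticoid receptors, begins 189 bases before that Sgk1 start site. On either strand it occurred in 3 of 32851 upstream windows of 250 bases (0.00913%). It was found in none of the windows of Scnn1g, Scnn1b or the 3 start sites of Tsc22d3 (0 each). Its half-site AGAACA, which every palindrome also contains, occurred in 16.1% of all windows, in 3 of the Sgk1 windows, in 1 of Tsc22d3 and in 0 of Scnn1g and Scnn1b. The cAMP response element TGACGTCA, read by CREB, occurred in 1.55% of all windows and in 0 of those of these 4 genes. Its half-site TGACG, part of the full element, occurred in 17.8% of all windows, in 1 Sgk1 window, in 1 Tsc22d3 window and in 0 of Scnn1g and Scnn1b. A match is a run of letters and not evidence of binding.

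Among the members, Tmprss4 was the 1 gene that rose with dDAVP in limma (threshold of 0.05 on the p adjusted over all probe sets), and none fell (0). The remaining 8 measured genes did not pass, and at the level of probe sets 1 of 15 rose. Each array read a whole culture, so a change in the share of cells that express a gene and a change of its RNA per cell cannot be told apart. Over all genes 0.259% passed as higher and 0.0324% as lower, and over all probe sets 0.188% and 0.0283%. At an unadjusted p below 0.05 there were 2 member genes, Tmprss4 and Scnn1g, where 7.80% of all genes had such a p. The median change of the 9 genes was 0.04, against 0.01 over all genes. A positive sign was seen in 8 of the 9 by the brightest probe set, where 55.4% of all genes had one. By the mean of each gene's probe sets it was seen in 6 of the 9. Of the 15 member probe sets 9 had a positive sign, against 51.7% of all probe sets. Of the 15 probe sets, 3 had all dDAVP arrays above all vehicle arrays, against 8.07% of all probe sets, and 0 had all of them below, against 5.35%. As a check that the hormone acted, the water channel gene Aqp2 measured 10.93, 10.79 and 10.82 in dDAVP cells, against 6.65, 6.72 and 6.72 in vehicle cells.

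**Figure D1:**
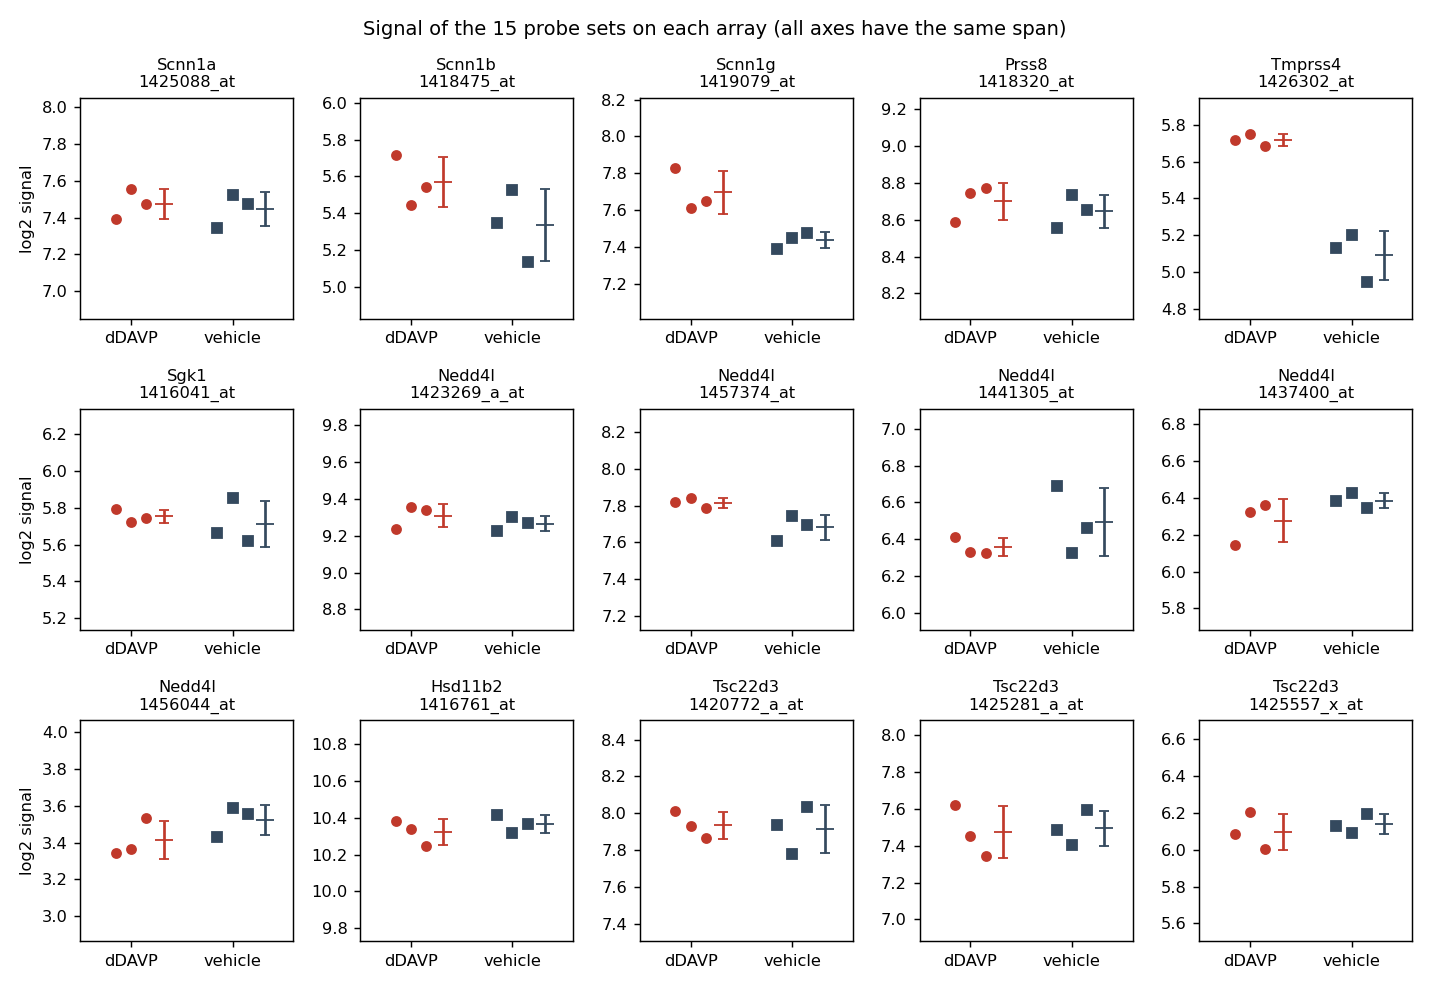
Log2 signal (vertical axes, all of equal span) of the 15 member probe sets on each dDAVP array (red circles, left) and vehicle array (dark squares, right), with the mean and SD of 3 arrays beside them. The groups stand apart for Tmprss4, Scnn1g and 1 of the 5 Nedd4l probe sets, and overlap for the other 12.

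Scnn1a encodes the alpha subunit, which the channel needs to reach the membrane and conduct. It measured 7.39, 7.56 and 7.47 in dDAVP cells, against 7.35, 7.53 and 7.47 in vehicle cells. The groups overlapped almost completely. The change was 0.02 ± 0.074 (SE, n = 3 arrays per group, limma adjusted p = 0.966). Its 95% interval ran from 0.904-fold to 1.15-fold of vehicle.

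Scnn1b encodes the beta subunit. Its signal was 5.72, 5.45 and 5.54 in dDAVP cells, against 5.34, 5.52 and 5.13 in vehicle cells. Vehicle replicate 2 lay above dDAVP replicate 2, so the groups overlapped. The vehicle SD of 0.20 was the widest of any member in that group. The change of 0.23 ± 0.11 (SE) did not pass (limma adjusted p = 0.674), with an interval from 0.982-fold to 1.41-fold. Without vehicle replicate 3, the lowest array, the change was 0.13.

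Scnn1g encodes the gamma subunit, which like alpha is cut by activating proteases. It read 7.83, 7.61 and 7.65 in dDAVP cells, against 7.39, 7.45 and 7.47 in vehicle cells. All dDAVP arrays were higher, and dDAVP replicate 1 was the highest. The change was 0.26 ± 0.074 (SE), or 1.20-fold with an interval from 1.06-fold to 1.35-fold. The unadjusted p was 0.00850, but the limma adjusted p over all probe sets was 0.397. Leaving out any 1 array gave 0.19 to 0.30, with the lowest value when dDAVP replicate 1 was left out.

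Unequal change of the subunits was examined within arrays, over 3 pairs. The signal of Scnn1g minus that of Scnn1a was 0.44, 0.05 and 0.18 on dDAVP arrays, against 0.04, -0.08 and 0.0022 on vehicle arrays. The groups did not overlap, and the difference between the changes was 0.23 ± 0.12 (SE), exact two-sided permutation p = 0.1, adjusted p = 0.3 over the 3 pairs. Without dDAVP replicate 1 it was 0.13. For Scnn1b minus Scnn1a the difference was 0.21 ± 0.17 (exact p = 0.4, adjusted p = 0.6), or 0.09 without dDAVP replicate 1 and 0.10 without vehicle replicate 3. For Scnn1g minus Scnn1b it was 0.02 ± 0.13 (exact p = 0.8, adjusted p = 0.8). With 3 against 3 arrays the smallest possible p is 0.1, so none of these pairs could pass.

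For each subunit the genes with the most similar profile over the 6 arrays were found as those with the smallest root mean square difference, after each gene was centred on its own mean. Among 8018 other genes above the median level, the closest to Scnn1a were Scamp2 (0.012 log2 units), Vps53 (0.017) and Pfkm (0.018). Closest to Scnn1g were Oit1 (0.032), Fuca2 (0.040) and Smim8 (0.043). Scnn1b, itself below that level, was compared with 8019 genes and lay nearest to Irs2 (0.053), Trim11 (0.075) and Scd1 (0.077). The subunits' own root mean square deviations from their means were 0.073 for Scnn1a, 0.18 for Scnn1b and 0.15 for Scnn1g. Within those distances lay 2160, 3191 and 3244 genes, so close profiles were common.

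Tmprss4, also called channel-activating protease 2, is a transmembrane serine protease that raises ENaC current when expressed with the channel in frog oocytes. Its probe set measured 5.72, 5.75 and 5.68 in dDAVP cells, against 5.13, 5.20 and 4.94 in vehicle cells. The lowest dDAVP array lay well above the highest vehicle array. The change was 0.62 ± 0.078 (SE), or 1.54-fold with an interval from 1.36-fold to 1.75-fold (limma adjusted p = 0.0271). In fits that left out 1 array the change was 0.55 to 0.68, and it passed only without vehicle replicate 2 (adjusted p = 0.0429). The adjusted p was 0.0880 to 0.160 without any of the others. The call also ended when replicate numbers entered the fit as a block (adjusted p = 0.0821), although the numbers were not found to pair the cultures.

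Prss8 encodes prostasin (channel-activating protease 1), a membrane-anchored serine protease that cuts the gamma subunit. It read 8.59, 8.75 and 8.77 in dDAVP cells, against 8.55, 8.73 and 8.65 in vehicle cells. The groups overlapped, and the change was 0.05 ± 0.077 (SE, limma adjusted p = 0.928). The interval ran from 0.917-fold to 1.17-fold, below the lower bound for Tmprss4. Whether the changes of the proteases differ was not tested directly.

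**Figure D2:**
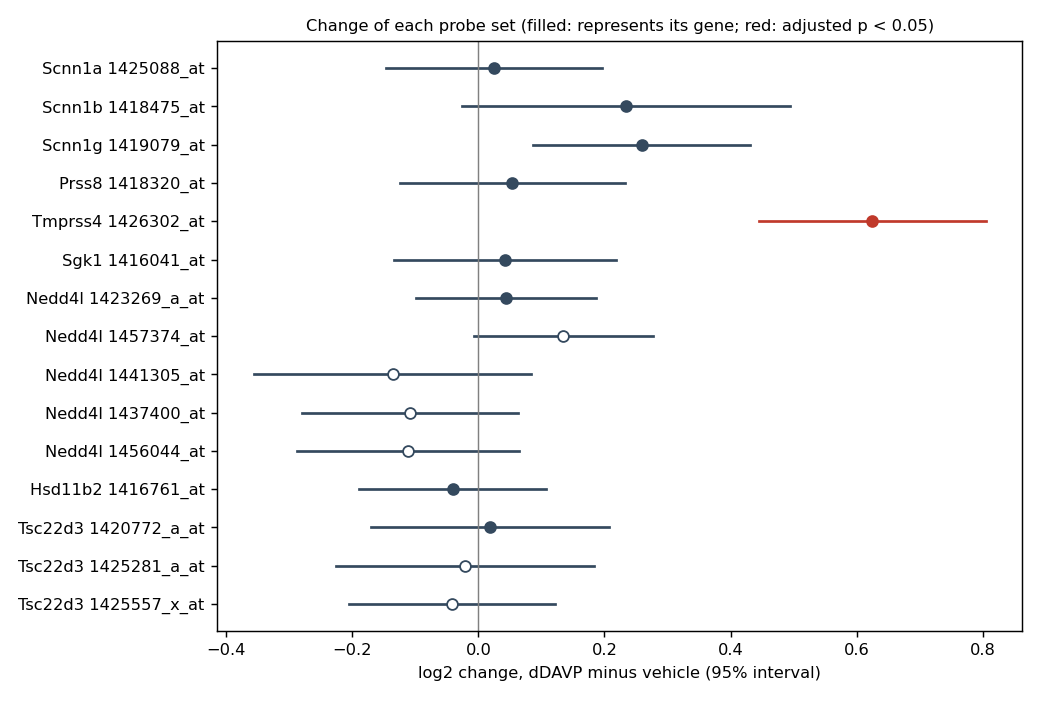
Log2 change of each member probe set, dDAVP minus vehicle (horizontal axis), with its 95% interval from limma; filled points represent their gene and open points are its other probe sets. Tmprss4 (red) is the 1 probe set past the adjusted threshold, at 0.62, and Scnn1g at 0.26 is the other whose unadjusted interval lies above 0.

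Sgk1 encodes the kinase through which aldosterone protects the channel. Its single probe set measured 5.79, 5.73 and 5.75 in dDAVP cells, against 5.66, 5.86 and 5.62 in vehicle cells. The dDAVP values lay inside the vehicle range. The change was 0.04 ± 0.076 (SE, limma adjusted p = 0.946), with an interval from 0.911-fold to 1.16-fold. Only the value after 5 days of exposure was measured.

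Nedd4l encodes the ubiquitin ligase that marks ENaC for removal, and it was the member with the most probe sets, 5. The brightest, 1423269_a_at, read 9.24, 9.35 and 9.34 in dDAVP cells, against 9.22, 9.30 and 9.27 in vehicle cells. Its change was 0.04 ± 0.062 (SE, limma adjusted p = 0.925), and the groups overlapped. Probe set 1457374_at measured 7.82, 7.84 and 7.79 in dDAVP cells, against 7.61, 7.74 and 7.69 in vehicle cells. There the groups did not overlap, but the change of 0.13 ± 0.061 (SE) did not pass (adjusted p = 0.640). The remaining Nedd4l probe sets, 1441305_at, 1437400_at and 1456044_at, had negative changes of -0.14, -0.11 and -0.11, with adjusted p from 0.806 to 0.811. The last of these had a mean below 3.92, the 95th percentile of 14 probe sets for smell and pheromone receptors, which served as a background level. It was the 1 member probe set below it.

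Within arrays, the signal of the brightest Nedd4l probe set minus that of 1437400_at was 3.09, 3.03 and 2.98 in dDAVP cells, against 2.84, 2.88 and 2.92 in vehicle cells. The groups did not overlap, and the difference between the changes was 0.15 ± 0.041 (SE). Differences from the other probe sets were -0.09 for 1457374_at, 0.18 for 1441305_at and 0.16 for 1456044_at. The groups also did not overlap for 1457374_at, nor for 1456044_at, which lay below the background level, but did for 1441305_at. Without vehicle replicate 1 the difference for 1441305_at was 0.06 and that probe set's own change was -0.04. Without dDAVP replicate 1 the difference for 1457374_at was -0.05. Over the 6 such pairs of Nedd4l and Tsc22d3 the exact permutation p was 0.1 to 0.4 and the adjusted p 0.2 to 0.4, where 0.1 is the smallest p these arrays allow. Which transcripts of Nedd4l each probe set reads was not examined here.

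Hsd11b2 encodes the enzyme that inactivates glucocorticoids in aldosterone target cells and so reserves the mineralocorticoid receptor for aldosterone. It measured 10.39, 10.34 and 10.25 in dDAVP cells, against 10.41, 10.32 and 10.37 in vehicle cells. The groups overlapped, with a change of -0.04 ± 0.064 (SE, limma adjusted p = 0.934) and an interval from 0.878-fold to 1.08-fold.

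Tsc22d3 encodes GILZ, a leucine zipper protein induced by glucocorticoids and aldosterone that raises ENaC activity. The brightest of its 3 probe sets, 1420772_a_at, read 8.01, 7.93 and 7.86 in dDAVP cells, against 7.93, 7.78 and 8.03 in vehicle cells. Its change was 0.02 ± 0.081 (SE, limma adjusted p = 0.978). Probe sets 1425281_a_at and 1425557_x_at changed by -0.02 ± 0.088 and -0.04 ± 0.071, with adjusted p of 0.976 and 0.942. The groups overlapped on all 3. By the manufacturer's naming, the last may also bind related sequences.

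The wider pathway was described by 6 lists of genes, in which 83 of 100 genes were measured. Like the members, the lists were chosen with earlier results of these data known, so their shares are not independent of those results. In the lists, 1 gene rose and none fell (0) in limma, against 0.259% and 0.0324% of all genes. At an unadjusted p below 0.05 there were 9 higher and 3 lower genes, or 10.8% and 3.61%, where 5.51% and 2.30% of all genes were. The median change over the 83 was 0.03.

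**Figure D3:**
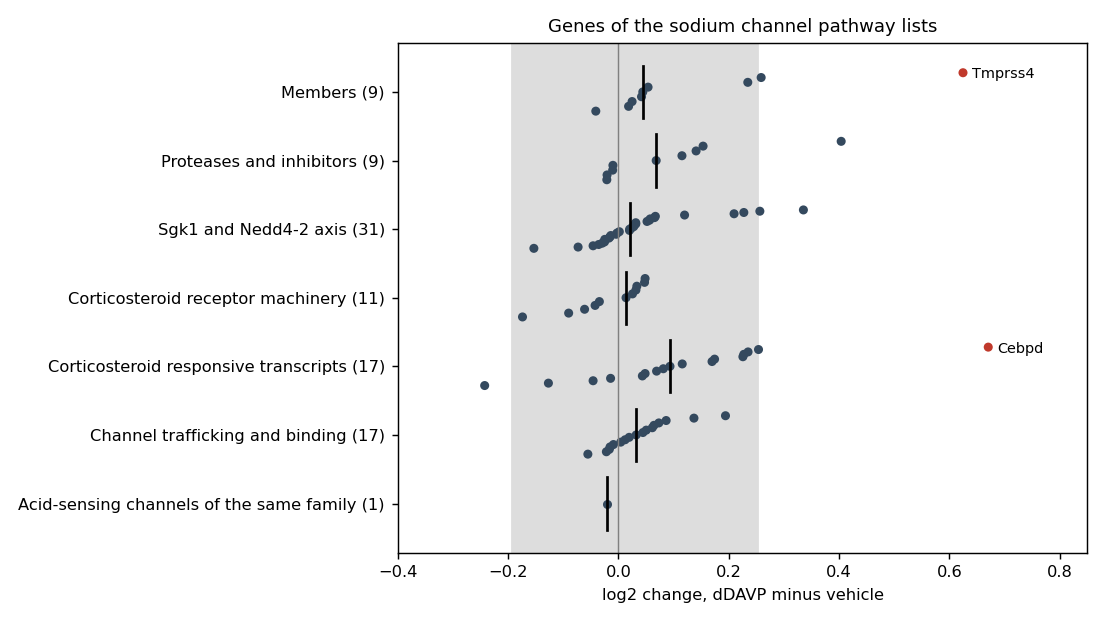
Log2 change, dDAVP minus vehicle (horizontal axis), of the 9 members and of each measured gene in 6 pathway lists (numbers of genes in brackets), 1 probe set per gene, with the list median as a black bar. Grey marks the middle 95% of all genes, from -0.19 to 0.25, and red the genes past the adjusted threshold, Tmprss4 and Cebpd.

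Of 9 measured proteases and protease inhibitors, none passed (0 in limma, 1 at an unadjusted p below 0.05), and the median was 0.07. Plau, the secreted protease urokinase, measured 7.44, 6.98 and 6.89 in dDAVP cells, against 6.72, 6.67 and 6.71 in vehicle cells. All dDAVP arrays were higher, but 1 of them stood far above the others, and the change was 0.40 ± 0.13 (SE, limma adjusted p = 0.478), or 0.24 without dDAVP replicate 1. Tmprss2, a transmembrane protease related to Tmprss4, had 0.15 ± 0.074 (adjusted p = 0.679). The groups did not overlap for 3 of these 9 genes, with dDAVP higher in each, where 10.1% of all genes showed this.

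Of 31 measured genes around SGK1 and NEDD4-2, none passed (0 in limma), and the median was 0.02. At an unadjusted p below 0.05, 3 were higher and 1 was lower (9.68% and 3.23%), where 5.51% and 2.30% of all genes were. The kinase Sgk2, a relative of Sgk1, measured 6.03, 5.91 and 5.99 in dDAVP cells, against 5.68, 5.76 and 5.48 in vehicle cells. The groups did not overlap, and the change was 0.34 ± 0.084 (SE, limma adjusted p = 0.308). Oxsr1, a kinase activated by WNK kinases, had -0.15 ± 0.057 (adjusted p = 0.539).

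Of 11 measured genes of corticosteroid receptors, their chaperones and cofactors, none passed (0 in limma, 1 at an unadjusted p below 0.05), and the median was 0.01. Nr3c1, the glucocorticoid receptor, measured 9.45, 9.48 and 9.44 in dDAVP cells, against 9.61, 9.67 and 9.61 in vehicle cells. The dDAVP arrays were all lower, with a change of -0.17 ± 0.056 (SE, limma adjusted p = 0.464). The cochaperone Stip1 was next by p, at 0.05 ± 0.055 (adjusted p = 0.905).

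Among 17 measured corticosteroid-responsive transcripts, 1 rose and none fell (0), against 0.259% and 0.0324% of all genes, and 16 did not pass. Their median of 0.09 stood beside 0.01 for all genes, and 6 had all dDAVP arrays above all vehicle arrays, against 10.1% of all genes. At an unadjusted p below 0.05, 5 were higher and 1 was lower, where 5.51% and 2.30% of all genes were. Besides the gene that passed, the higher ones were Bcl6 (0.25), Mt2 (0.23), Usp2 (0.23) and Mt1 (0.17). The lower one was the metabolic kinase Pdk4 (-0.24). Of the rest, Per1 (0.24, all dDAVP arrays higher) and Ddit4 (0.17) were positive without such a p, while Fkbp5 (0.05) and Klf9 (-0.01) lay near 0. Over the 17 genes, 13 changes were positive and 4 negative, where 55.4% of all genes had a positive one. Apart from the gene that passed, these genes were named after their values were seen. The gene that rose was Cebpd, a transcription factor that also responds to cytokines and cAMP. It measured 4.54, 4.74 and 4.76 in dDAVP cells, against 4.03, 4.14 and 3.86 in vehicle cells. Its vehicle mean of 4.01 was near the background level of 3.92, and vehicle replicate 3 lay below that level. Its change of 0.67 ± 0.093 (SE) passed at the edge of the threshold (limma adjusted p = 0.04997), and no fit that left out 1 of the arrays kept it (0.59 to 0.74, adjusted p from 0.0782 to 0.218). Median centring (adjusted p = 0.0573), a robust prior (0.0587) and the replicate block (0.157) also ended this call.

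Of 17 measured genes that bind the channel or move it to and from the membrane, none passed (0 in limma, 1 at an unadjusted p below 0.05), with a median of 0.03. The smallest p values were those of Prkaa2, a catalytic subunit of the energy sensor AMPK (0.19 ± 0.074, adjusted p = 0.564), and of caveolin Cav1 (0.14 ± 0.069, adjusted p = 0.694). Of 5 acid-sensing channels, relatives of ENaC, the 1 measured was Asic4, at -0.02 ± 0.095 (adjusted p = 0.980) and below the background level.

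The labelled cell type was checked against markers. Of 7 principal cell markers 6 were measured, 5 of them above the background level, with Elf5 below it. Over all probe sets 24001 of 28225 lay above that level, so being above it does not mark a cell type. The summed signal of these markers was 11.97 to 12.08 log2 units in dDAVP cells, against 10.92 to 11.02 in vehicle cells. Aqp2 weighed most in the sum of dDAVP cells (mean 10.85), and Gata3 in that of vehicle cells (mean 9.87, with Aqp2 at 6.70). Of the 6, 3 rose in limma, where 0.259% of all genes did. These were Aqp2, the sodium pump regulator Fxyd4 (0.68, adjusted p = 0.0116) and the V2 receptor Avpr2 (0.52, adjusted p = 0.0271). The others did not pass, with Aqp3 at 0.15, Gata3 at -0.08 and Elf5 at -0.0049. The 1 measured intercalated cell marker of 6, the proton pump subunit Atp6v1b1, lay at 7.39 to 7.54 in dDAVP cells, against 7.13 to 7.17 in vehicle cells, and did not pass (adjusted p = 0.153). Markers of thick ascending limb (Slc12a1), endothelium (Cdh5) and fibroblasts (Col1a1 and Col3a1) were below the background level. The proximal tubule gene Lrp2 measured 8.17 to 8.30 in dDAVP cells, against 8.25 to 8.45 in vehicle cells. Of 4 leukocyte markers 3 were measured, with a summed signal of 9.36 to 9.50 in dDAVP cells, against 9.47 to 9.62 in vehicle cells. Csf1r carried most of that sum and changed by -0.13, while Cd68 was at 0.20, with all dDAVP arrays higher, and Ptprc, below the background level, at 0.22. None of the 3 passed in limma (adjusted p from 0.593 to 0.728, with 1 at an unadjusted p below 0.05). The part of these in the members' values was not tested.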

How the data were processed

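Total RNA was extracted with Trizol and labelled with biotin, per the labels' protocols. The deposited values are summarised log2 signals of the probe sets. Affymetrix Expression Console 1.1, RMA and MAS5 appear in the submitters' processing notes, which do not say which made the values. Values ran from 2.15 to 14.1, array medians lay within 0.043 log2 units, and arrays correlated at 0.996 to 0.998, so no normalization was added. Summaries over probes can compress ratios of dim genes. No read depth applies, and the number of arrays limits precision.

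All 6 columns were used, and 62 control probe sets were left out. Names came from the platform annotation, and all 9 measured members matched RefSeq by Entrez ID. limma 3.58.1 under R 4.3.3 (lmFit, eBayes) was run on 28225 probe sets with Benjamini-Hochberg adjustment over all of them and a threshold of 0.05. Each gene was counted by its brightest probe set over the 6 arrays. Intervals are 95% and moderated, and not adjusted. Differences within arrays used exact permutation tests. The code was tested on simulated data.

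The members and lists were chosen with earlier results of these data known. Named in the lists were genes that passed, or else the 2 with the smallest p. In the list of corticosteroid responsive transcripts further genes were named after their values were seen. Same-numbered cultures correlated at 0.196, 0.0463 and -0.0522 in their deviations from group means. Differently numbered cultures correlated at -0.208 to 0.170, a range that the first of those values exceeded and the others did not. The numbers were therefore not taken to pair the cultures. Alternatives were quantile normalization, median centring, scaling to poly-A or hybridisation controls, filters on dim probe sets, a trended or robust prior, each array left out in turn, the replicate block, averaged probe sets per gene and a threshold of 0.01. Promoter sequences are RefSeq's (GRCm38.p6). Figures were drawn with matplotlib 3.10.9.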

Additional observations from a re-analysis of the deposited data

How the results depend on the processing

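The 1 member called, Tmprss4, was also the 1 called under quantile normalization, median centring, both control scalings, the background filter and the trended and robust priors, with changes of 0.60 to 0.77. The count of member probe sets and of member genes was 0 with the filter at the median level of all probe sets, which removes Tmprss4, 0 with the replicate block and 0 at a threshold of 0.01. It was 0 to 1 when 1 array was left out. The mean of each gene's probe sets also gave 1 gene. The block lowered the count over all probe sets to 21 higher and 3 lower, against 53 and 8 without it. Pathway list genes called were 1 as reported, 0 with median centring, the median filter, a robust prior, the replicate block, a threshold of 0.01 or any 1 array left out (0 to 0), and 3 with hybridisation control scaling, which added Plau (0.55) and Sgk2 (0.48). That scaling moved the median of all probe sets by 0.15 and called 275 of them higher and 7 lower, against 53 and 8 without it. It gave positive values for Hsd11b2 (0.11), for the Nedd4l probe sets 1441305_at (0.012), 1437400_at (0.039) and 1456044_at (0.036), for Tsc22d3 1425281_a_at (0.13) and 1425557_x_at (0.11), and for Asic4 (0.13). Poly-A scaling gave -0.0054 for Tsc22d3 1420772_a_at. With 1 array left out, signs turned within -0.026 to 0.066 for Scnn1a, -0.0052 to 0.11 for Sgk1, -0.050 to 0.078, -0.096 to 0.044 and -0.094 to 0.0042 for the Tsc22d3 probe sets 1420772_a_at, 1425281_a_at and 1425557_x_at, -0.12 to 0.042 for Asic4, and -0.066 to 0.14 for Scnn1g minus Scnn1b. None of these had passed. Scnn1g passed under none of the alternatives (adjusted p = 0.0609 at the lowest, with hybridisation scaling). The causes were not tested. Signals near the background level, such as the dimmest Nedd4l probe set and Cebpd in vehicle cells, limit what can be seen there.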
